A study of Mus musculus with 5 samples.

Results

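Natural killer (NK) cells kill infected or transformed cells with lytic granules and with ligands of the tumour necrosis factor (TNF) superfamily. The genes described here are 8 members of that system: the death ligands Fasl and Tnfsf10 (TRAIL), the death receptor Fas, the cytokines Tnf, Lta and Ltb, and the TNF receptors Tnfrsf1a and Tnfrsf1b. They were taken by gene symbol from the deposited table, which held all 8 among its 13004 genes. RNA had been sequenced from splenic NK cells of 8-week-old C57BL/6 mice, sorted by flow cytometry as live cells negative for CD3 and positive for NK1.1 and DX5. There were 3 control libraries of genotype Mycf/f (replicates 1, 2 and 3), whose Myc alleles are flanked by loxP sites. The 2 MycKO libraries (replicates 5 and 6) had the genotype Mycdelta/delta/Ncr1Cre, in which Cre recombinase under Ncr1 control deletes Myc in cells that express Ncr1. No Cre allele is named for the controls, so the effect of Cre and that of Myc loss cannot be told apart. The labels do not tell whether the libraries stem from different mice, and p-values thus rest on a spread between libraries that may be technical.

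FasL and TRAIL are membrane ligands whose receptors carry a death domain. The receptors recruit the adaptor FADD and caspase-8 and start apoptosis in the target cell. TNF and soluble lymphotoxin-alpha bind both TNF receptors. Lymphotoxin-beta is held at the membrane in complexes with lymphotoxin-alpha, which bind the lymphotoxin-beta receptor on stromal and myeloid cells and shape lymphoid tissue. TNF receptor 1 (Tnfrsf1a) has a death domain and TNF receptor 2 (Tnfrsf1b) has none, and both can activate the transcription factor NF-κB. MYC, the factor deleted here, pairs with MAX and binds E-box sequences.

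Ltb, Tnf and Lta lie side by side in the major histocompatibility complex on chromosome 17, and their upstream sequence is shown because these neighbours had the 3 highest fold changes among the 8 genes. That of Fas is shown because it alone among them held the E-box CACGTG. Sequences are from RefSeq (GRCm38.p6), 5′ to 3′ on the strand of the gene, and run from 250 bases before the RefSeq start site up to that site or, for Ltb, to the base before the GENCODE vM21 gene. Capitals mark matches to 3 motifs searched on both strands: the E-box CACGTG, the NF-κB consensus, and the AP-1 site TGANTCA. The positions are chr17:35194257-35194438 (plus strand), chr17:35202008-35202257 (minus strand), chr17:35205352-35205601 (minus strand) and chr19:34290409-34290658 (plus strand).
Ltb: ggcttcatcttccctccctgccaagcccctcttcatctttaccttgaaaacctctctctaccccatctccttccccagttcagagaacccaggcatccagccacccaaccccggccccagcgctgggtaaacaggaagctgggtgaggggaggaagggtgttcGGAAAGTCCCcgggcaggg
Tnf: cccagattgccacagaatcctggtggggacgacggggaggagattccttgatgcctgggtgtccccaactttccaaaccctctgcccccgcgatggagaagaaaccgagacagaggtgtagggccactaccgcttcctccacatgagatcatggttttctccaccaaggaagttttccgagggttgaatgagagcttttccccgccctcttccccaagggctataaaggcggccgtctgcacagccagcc
Lta: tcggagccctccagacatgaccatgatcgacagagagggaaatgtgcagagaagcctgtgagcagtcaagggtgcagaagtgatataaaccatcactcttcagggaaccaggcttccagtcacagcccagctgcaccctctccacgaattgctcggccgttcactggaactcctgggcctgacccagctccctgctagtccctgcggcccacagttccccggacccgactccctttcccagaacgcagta
Fas: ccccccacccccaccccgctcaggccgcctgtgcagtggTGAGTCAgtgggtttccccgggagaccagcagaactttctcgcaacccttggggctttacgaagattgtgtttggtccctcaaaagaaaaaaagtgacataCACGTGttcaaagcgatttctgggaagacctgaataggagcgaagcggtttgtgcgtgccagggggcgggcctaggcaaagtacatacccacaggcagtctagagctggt

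In the 250 bases before the RefSeq start sites, the NF-κB consensus was found in Ltb alone of the 8 genes, as GGAAAGTCCC (its reverse strand) from base -87 to base -78. It occurred in 7.25% of 32851 RefSeq promoter windows of the same length. The E-box was found in Fas alone, from base -110 to base -105, and in 6.02% of all windows. The AP-1 site was also found in Fas alone, as TGAGTCA from base -211 to base -205, and in 6.75% of all windows. No match overlapped another. A match describes letters only, and a window without one lacks only these letters.

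Values are RPKM (reads of a gene scaled by its length and by the depth of the library). Reads in the listed genes, worked out from these values, numbered 14290690 to 17610826 in controls, 5451728 in MycKO 5 and 13337084 in MycKO 6. Precision was therefore lowest in MycKO 5. Myc itself had a control mean of 19.1 ± 5.34 RPKM (SD, n = 3) and a MycKO mean of 10.6 ± 2.68 RPKM (SD, n = 2), for a limma adjusted p of 0.297. Its value counts any exon left after the deletion, so it does not measure how complete the deletion was. All 13 NK cell markers of the list used here were detected in every library, and Gzma, a granule protease gene, was the most abundant (6910 ± 334 and 5159 ± 651 RPKM). They summed to 13335 to 15383 RPKM in controls and 10438 and 12456 RPKM in MycKO. Without Gzma, the other 12 summed to 6440 to 8132 RPKM in controls, against 5739 and 6836 RPKM in MycKO libraries 5 and 6, and the groups overlapped. Of the 13 markers, 9 had a negative and 4 a positive log2 fold change, and none passed in limma, against 1.34% of all genes. At an unadjusted p under 0.05 in limma, 6 were lower and none higher, against 3.35% and 9.83% of all genes. Both MycKO libraries lay below all controls for 6 and above for 1, against 10.4% and 18.8%. Limma-voom on the reads behind the RPKM values called 3 as lower and none as higher, against 0.241% and 1.83%. The authors' deposited table has 4 as lower, against 3.4% of its genes in either direction. Markers of other spleen cells had higher sums in both MycKO libraries, and their values stand beside the results. In bulk RNA, fewer cells of a type and less RNA per cell cannot be told apart.

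The comparison asks which transcripts differ when Myc is deleted in NK cells. None of the 8 genes passed the test across all genes (limma, adjusted p under 0.05), against 1.34% of 11190 genes tested (1.24% as higher and 0.0983% as lower in MycKO). Among them, 4 had an unadjusted p under 0.05, all with higher values in MycKO (Ltb, Lta, Tnfsf10 and Tnfrsf1a), against 9.83% of all genes in that direction, 3.35% in the other and 13.2% in either. In 6 of the 8, both MycKO libraries lay above all 3 controls, against 18.8% of genes tested; 10.4% had both below and 29.1% were apart in either direction. Fasl and Tnfrsf1b were the exceptions, with overlapping groups. Limma-voom on the reads behind the RPKM values called 1 of the 8, Ltb, as higher, against 1.83% of all genes in that direction, 0.241% in the other and 2.07% in either. The authors' deposited table also has only Ltb among them at an adjusted p under 0.05 as higher, against 2.9% of its genes, or 3.4% in either direction. The median log2 fold change of the 8 was 0.71, and that of all genes tested was 0.05. The 8 genes were chosen with earlier results of these data known, so these shares and medians do not test them as a set.

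**Figure D1:**
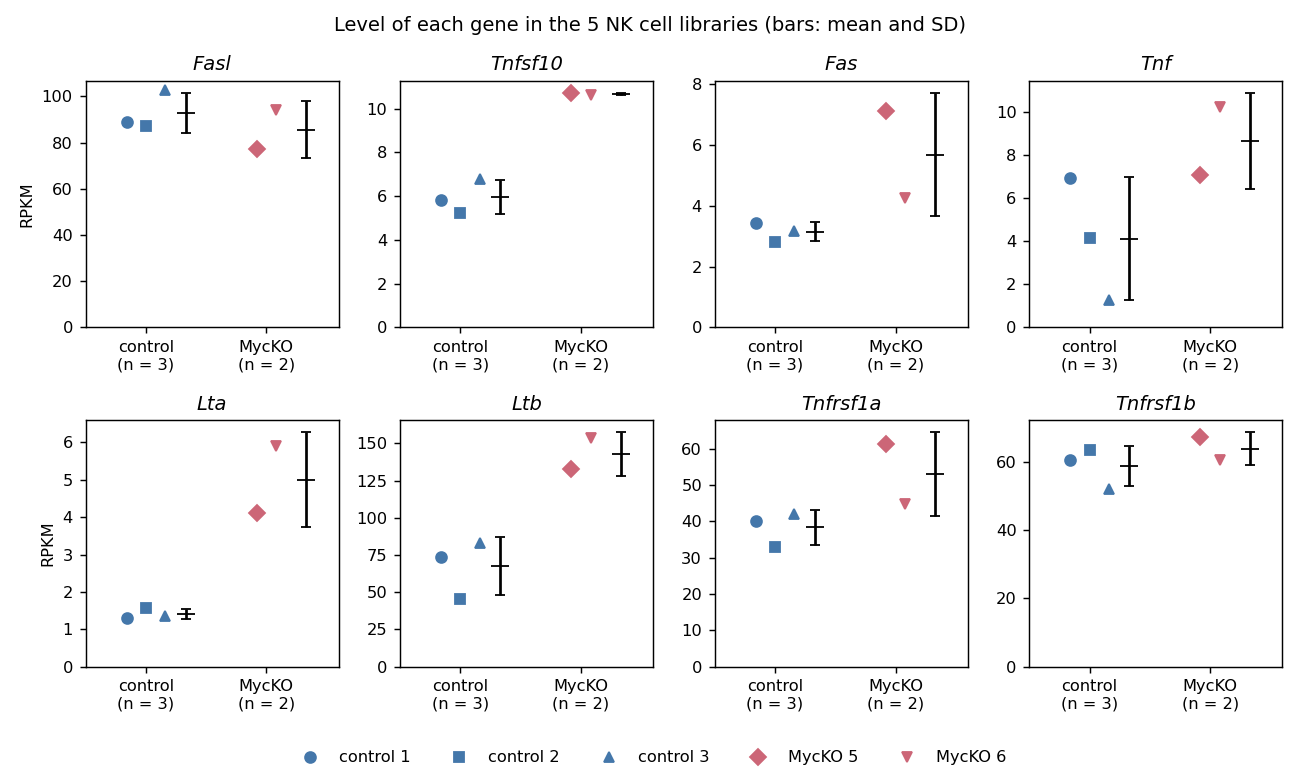
RPKM of each gene (vertical axis, from 0) in 3 control and 2 MycKO libraries; each symbol is 1 library, and the bar beside each group is its mean with SD. Both MycKO libraries lie above all 3 controls for 6 genes, while the groups overlap for Fasl and Tnfrsf1b.

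Fasl, the ligand of Fas and a main effector of granule-independent killing, was the most abundant of the 8 genes in controls. It lies on the minus strand of chromosome 1 (161780689 to 161788495, mm10; Entrez 14103). Control libraries 1, 2 and 3 had 88.9, 87.0 and 102.8 RPKM, and MycKO libraries 5 and 6 had 77.0 and 94.2 RPKM. MycKO 5 was the lowest library and MycKO 6 lay inside the control range. The groups differed by a log2 fold change of -0.12 (SE 0.13), with a 95% interval of -0.43 to 0.19 and a limma adjusted p of 0.818. Without MycKO 5 the sign turned, to 0.024 with a limma adjusted p of 0.99.

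Tnfsf10 encodes TRAIL, the second death ligand, known on immature and tissue-resident NK cells. It lies on the plus strand of chromosome 3 (27317028 to 27342427; Entrez 22035). Control libraries 1, 2 and 3 had 5.80, 5.25 and 6.79 RPKM, and MycKO libraries 5 and 6 had 10.71 and 10.64 RPKM. The 2 MycKO libraries were close together and above every control, with a mean 1.80 times that of controls (5.95 ± 0.782 RPKM, SD, n = 3, and 10.7 ± 0.0516 RPKM, SD, n = 2). On 289 and 702 reads, MycKO 5 and 6 had 95% Poisson intervals of 9.51 to 12.02 and 9.87 to 11.46 RPKM. Both are far wider than the MycKO SD, which thus understates the error of these values. Between the groups, log2 values differed by 0.76 (SE 0.22), with a 95% interval of 0.23 to 1.28 and a limma adjusted p of 0.19, so it did not pass. It lay at 0.68 to 0.84 without each library in turn.

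The proportion of the 2 death ligands was compared within libraries. Fasl RPKM was 15.3, 16.6 and 15.1 times Tnfsf10 RPKM in control libraries 1, 2 and 3, against 7.19 and 8.86 times in MycKO libraries 5 and 6. On the log2 scale of RPKM + 1, this ratio was 3.76 ± 0.0496 (SD, n = 3) in controls and 2.88 ± 0.209 (SD, n = 2) in MycKO, and the groups did not overlap. The difference was -0.87, with a two-sided exact permutation p of 0.2 and 0.8 after Benjamini-Hochberg adjustment over 4 ratios. With 3 against 2 libraries, 0.2 is the smallest p this test can give. A ratio within a library shows unequal values of the 2 genes and not which of them differs.

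Fas, the death receptor that FasL engages, was near the lower end of the 8 genes. It lies on the plus strand of chromosome 19 (34290666 to 34327772; Entrez 14102), and its upstream sequence with the E-box is printed above. Control libraries 1, 2 and 3 had 3.43, 2.81 and 3.18 RPKM, and MycKO libraries 5 and 6 had 7.12 and 4.24 RPKM. MycKO 5 stood well above every other library, and MycKO 6 lay slightly above the controls. These values rested on 82 to 93 reads in controls, 70 in MycKO 5 and 102 in MycKO 6. Counting alone gives MycKO 6 a 95% Poisson interval of 3.46 to 5.15 RPKM and control 1 one of 2.77 to 4.20 RPKM. These intervals overlap, and the 2 libraries were not compared by a test. On the log2 scale the fold change was 0.66 (SE 0.30), and the adjusted p in limma was 0.418. It was 0.34 without MycKO 5 and 0.98 without MycKO 6.

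The cytokine genes Tnf, Lta and Ltb span 10913 bases of chromosome 17. Ltb (35194439 to 35196320, plus strand; Entrez 16994) ends 3060 bases before Tnf (35199381 to 35202007, minus strand; Entrez 21926). Tnf in turn ends 1157 bases before Lta (35203165 to 35205351, minus strand; Entrez 16992). All 3 are protein-coding, and no exon of another GENCODE gene overlaps those of any of the 8 genes.

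Tnf, the inflammatory cytokine for which the family is named, varied most among the controls relative to its mean. In RPKM, control libraries 1, 2 and 3 had 6.95, 4.16 and 1.27, and MycKO libraries 5 and 6 had 7.10 and 10.24 RPKM. Control 1 and MycKO 5 were nearly level, and control 3 was the lowest by far. Behind the values of control 1 and MycKO 5 stood 173 and 64 reads, with 95% Poisson intervals of 5.95 to 8.07 and 5.46 to 9.06 RPKM. The groups differed by a log2 fold change of 1.07 (SE 0.51), with a 95% interval of -0.12 to 2.27 and a limma adjusted p of 0.435. It was 0.58 without control 3 and 1.48 without control 1. Under median-of-ratios and upper-quartile scaling the groups of Tnf overlapped, which left 5 of the 8 genes with both MycKO libraries above all controls. The share of all genes was worked out for RPKM only (18.8%) and not under these scalings, so this count has no background.

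Lta encodes lymphotoxin-alpha, which acts as a secreted cytokine or as part of the membrane complex with lymphotoxin-beta. It was the least abundant of the 8 genes, with 1.30, 1.56 and 1.37 RPKM in control libraries 1, 2 and 3, against 4.11 and 5.91 RPKM in MycKO libraries 5 and 6. The controls were close together, and both MycKO libraries lay far above them, with a mean 3.56 times that of controls (1.41 ± 0.136 RPKM, SD, n = 3, and 5.01 ± 1.27 RPKM, SD, n = 2). The values rested on few reads, namely 27, 38 and 27 in the control libraries, against 31 and 109 in MycKO libraries 5 and 6. Poisson intervals of control 2 (1.10 to 2.14 RPKM) and MycKO 5 (2.79 to 5.83 RPKM) did not meet. That of control 1 alone (0.855 to 1.89 RPKM) was wider than the spread of the 3 controls. The log2 fold change of RPKM + 1, a scale that understates low genes, was 1.30 (SE 0.31; 95% interval 0.57 to 2.04), with a limma adjusted p of 0.114. Limma-voom gave 1.92 with an adjusted p of 0.347, and the authors' deposited table gives 1.77 with an adjusted p of 0.522.

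Ltb, the membrane lymphotoxin, was the most abundant of the 8 genes in MycKO and the second in controls. Control libraries 1, 2 and 3 had 73.9, 45.6 and 83.3 RPKM, and MycKO libraries 5 and 6 had 132.6 and 153.4 RPKM. Control 2 was the lowest library, and both MycKO libraries lay well above the highest control. The means were 67.6 ± 19.6 RPKM (SD, n = 3) and 142.95 ± 14.7 RPKM (SD, n = 2), a ratio of 2.11. Between the groups, log2 values differed by 1.11 (SE 0.24), with a 95% interval of 0.55 to 1.67 and a limma adjusted p of 0.0855, just short of the threshold. Without control 2 it passed as higher, at 0.85 with a limma adjusted p of 0.0289, against 1.81% of genes called as higher in that fit. It also passed in limma-voom (1.18, adjusted p of 0.0167) and in the authors' deposited table (1.02, adjusted p of 0.000625). Leaving out any of the other 4 libraries gave 1.01 to 1.28, with adjusted p between 0.114 and 0.327.

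Lymphotoxin-beta needs lymphotoxin-alpha to form its complex, so their proportion was compared within libraries. Ltb RPKM was 57.0, 29.2 and 61.0 times Lta RPKM in control libraries 1, 2 and 3, against 32.3 and 26.0 times in MycKO libraries 5 and 6. MycKO 5 lay between control 2 and the other controls. By this RPKM ratio MycKO 6 lay below all 3 controls, and on the log2 scale of RPKM + 1 the groups overlapped. The difference of the log2 ratio was -0.19 (exact permutation p = 0.6, adjusted p = 0.8). It was -0.62 with a pseudocount of 0.1, and -0.50 without control 2 against -0.01 without control 3. Lta RPKM was 0.187, 0.375 and 1.08 times Tnf RPKM in control libraries 1, 2 and 3, against 0.579 and 0.576 times in MycKO libraries 5 and 6. The wide control range holds both MycKO values, and the difference of the log2 ratio was 0.23 (exact permutation p = 0.8, adjusted p = 0.8). It was 0.42 with a pseudocount of 0.1, 0.72 without control 3 and -0.21 without control 1.

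Other genes near the cluster also had higher values in MycKO, which is given here as the genomic context and was looked up after the values of the cluster were seen. Within 25000 bases on either side, Aif1, Lst1 and Nfkbil1 were in the table. Only Aif1 passed, against 1.24% of all genes called as higher. Aif1, known from macrophages, rose from a mean of 7.08 to one of 36.7 RPKM (log2 fold change 2.22, limma adjusted p of 0.00506). Its MycKO libraries 5 and 6 had 39.2 and 34.3 RPKM. Lst1, known from myeloid cells, had means of 9.71 and 40.8 RPKM (2.05, adjusted p of 0.0891), with 52.9 and 28.6 RPKM in MycKO 5 and 6. Nfkbil1 had means of 4.31 and 8.82 RPKM (0.86, adjusted p of 0.241). Macrophage and monocyte markers, given below, were also higher in these libraries (10 of 12 raised), and their part in these values was not tested.

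Tnfrsf1a encodes TNF receptor 1, the form with a death domain. It lies on the plus strand of chromosome 6 (125349362 to 125362484; Entrez 21937). In RPKM, control libraries 1, 2 and 3 had 39.9, 32.8 and 42.1, and MycKO libraries 5 and 6 had 61.1 and 44.8 RPKM. MycKO 5 was the highest, and MycKO 6 was only slightly above control 3. The 95% Poisson intervals of MycKO 6 (42.4 to 47.3 RPKM) and control 3 (39.8 to 44.4 RPKM) overlapped. On the log2 scale the fold change was 0.45 (SE 0.18), with a 95% interval of 0.04 to 0.86 and a limma adjusted p of 0.335. It was 0.23 without MycKO 5.

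Tnfrsf1b encodes TNF receptor 2, the main form on lymphocytes. It lies on the minus strand of chromosome 4 (145213463 to 145246870; Entrez 21938). In RPKM, control libraries 1, 2 and 3 had 60.6, 63.4 and 52.1, and MycKO libraries 5 and 6 had 67.3 and 60.4, and the groups overlapped. The groups differed by a log2 fold change of 0.12 (SE 0.13), with a 95% interval of -0.18 to 0.43 and a limma adjusted p of 0.812. Tnfrsf1b RPKM was 1.52, 1.93 and 1.24 times Tnfrsf1a RPKM in control libraries 1, 2 and 3, against 1.10 and 1.35 times in MycKO libraries 5 and 6, so TNF receptor 2 transcripts were the more abundant form in all 5 libraries. The difference of the log2 ratio was -0.33 (exact permutation p = 0.4, adjusted p = 0.8), with -0.17 without control 2, -0.18 without MycKO 5 and -0.48 without control 3.

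**Figure D2:**
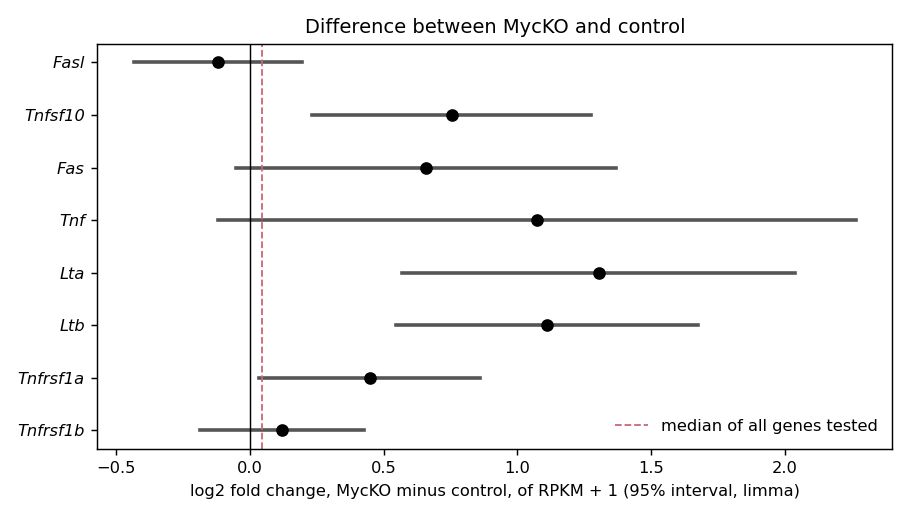
Log2 fold change of RPKM + 1, MycKO minus control (horizontal axis), for each gene, with its 95% interval from limma over 3 control and 2 MycKO libraries; the dashed line is the median of all genes tested (0.05). The intervals of Tnfsf10, Lta, Ltb and Tnfrsf1a lie above 0, and those of Fasl, Fas, Tnf and Tnfrsf1b hold 0; none passed after adjustment over all genes.

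By level per length, the order in controls was Fasl, Ltb, Tnfrsf1b, Tnfrsf1a, Tnfsf10, Tnf, Fas and Lta. The ranges of the control libraries overlapped between Ltb and Tnfrsf1b, between Tnfsf10 and Tnf, and between Tnf and Fas, so those neighbours are not separated by their spread. In MycKO, Ltb came first and Fasl second, with ranges that did not overlap, and the other 6 kept that order. Tnfrsf1b with Tnfrsf1a, Tnf with Fas, and Fas with Lta overlapped there. The order of these means describes levels and was not tested.

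**Figure D3:**
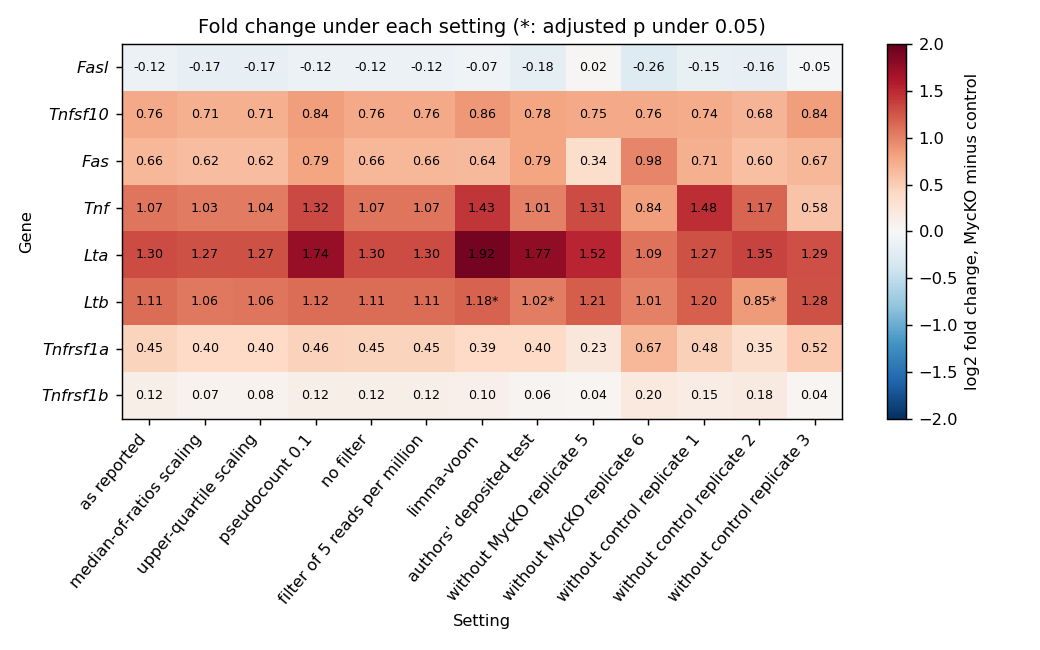
Log2 fold change, MycKO minus control (colour and printed value), of each gene (rows) under each way of processing (columns); a star marks an adjusted p under 0.05. Stars stand only in the row of Ltb, in limma-voom, in the authors' deposited test and without control replicate 2, and Fasl is the only gene whose sign turns.

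Marker genes of other spleen cells had higher sums in the same MycKO libraries. The sort had required NK1.1 and DX5 protein and excluded cells with CD3, and DX5 is known to be low or absent on type 1 innate lymphoid cells. From here on, a pair of values with ± is the mean and SD of the 3 controls followed by that of the 2 MycKO libraries, and adjusted p-values are from limma over all genes. Counts of genes that rose or fell stand against 1.24% of all genes called as higher and 0.0983% as lower. Of 9 T cell markers, all were in the table, and they summed to 38.6 to 61.2 RPKM in controls, against 146 and 203 RPKM in MycKO libraries 5 and 6. Of the 8 tested, 3 rose and none fell, among them Cd3g, which encodes a chain of the T cell receptor complex (11.3 ± 3.09 and 68.9 ± 9.83 RPKM, limma adjusted p of 0.00776). Of the 8, 7 had a positive and 1 a negative log2 fold change. The latter was Cd28, named here after its values were seen (25.8 ± 2.16 and 24.9 ± 0.592 RPKM, limma adjusted p of 0.945). It was the most abundant T cell marker in controls. Bulk values do not tell which cells held the transcripts of a marker list. No T cell marker was at 0 in every library of a group.

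B cell and plasma cell markers summed to 93.1 to 142.2 RPKM in controls, against 347 and 684 RPKM in MycKO libraries 5 and 6, with 1 of 8 raised, the antibody joining chain gene Jchain (53.3 ± 23.8 and 406 ± 246 RPKM, adjusted p of 0.0327). Jchain, a plasma cell gene, made up most of the MycKO sums, and the other 7 markers summed to 48.1 to 68.5 RPKM in controls, against 115 and 104 RPKM in MycKO libraries 5 and 6. Markers of type 1 innate lymphoid cells, close relatives of NK cells, summed to 26.0 to 30.7 RPKM in controls, against 84.7 and 136 RPKM in MycKO libraries 5 and 6, and 2 of 8 rose. The most abundant of them, the interleukin 7 receptor gene Il7r, was at 11.5 ± 2.30 and 42.7 ± 21.6 RPKM (adjusted p of 0.0532).

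Macrophage and monocyte markers summed to 222 to 386 RPKM in controls, against 1452 and 1192 RPKM in MycKO libraries 5 and 6, and 10 of 12 rose. Neutrophil markers summed to 24.5 to 78.3 and to 567 and 232 RPKM, and 2 of 6 tested rose. Red cell and platelet markers summed to 5.20 to 10.7 and to 202 and 90.5 RPKM, and 2 of 6 rose, led by Car1. Basophil and mast cell markers summed to 3.10 to 4.64 and to 60.6 and 9.12 RPKM, and none of 5 passed. Dendritic cell markers summed to 179 to 216 and to 262 and 217 RPKM, most of it Itgax, which NK cells also express, and none of 6 passed. Mpo and Mcpt8 were listed at 0 in every control and above 0 in at least 1 MycKO library. What part these cells have in the values of the 8 genes was not tested.

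**Figure D4:**
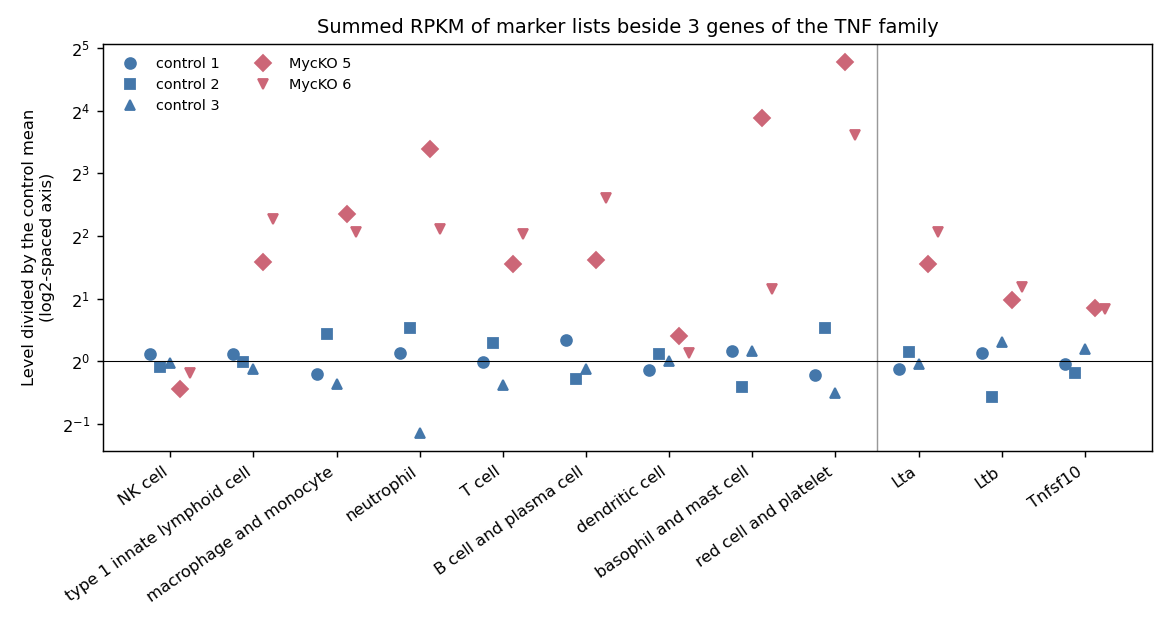
Summed RPKM of each marker list, and RPKM of Lta, Ltb and Tnfsf10, divided by the mean of the 3 controls (vertical axis, log2-spaced); each symbol is 1 library. All 8 lists of other cells lie higher in both MycKO libraries than in every control, as do the 3 genes, and the NK cell list lies lower. Without Gzma, the NK cell sums of the groups overlap (not drawn).

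Genes with the most similar pattern over the 5 libraries were sought among 7192 genes of moderate or high level, by the root mean square difference (RMS) of log2(RPKM + 1) after centring. The nearest to Ltb were Bloc1s2 and Cd79b (both RMS 0.155), and Cd79b is one of the B cell markers above. The nearest to Fas were Mif4gd (0.049) and Ms4a1 (0.061), the latter also a B cell marker. For Lta they were Pla2g15 (0.046) and Abcg3 (0.144), for Tnfsf10 Lap3 (0.071) and Rmdn3 (0.087), and for Tnf the more distant Idh1 (0.35) and Jun (0.361). For Fasl they were Il16 (0.028) and Pan2 (0.031), for Tnfrsf1a Tmem41b (0.063) and Slc41a1 (0.07), and for Tnfrsf1b Pbdc1 (0.016) and Ipcef1 (0.027). With 5 libraries many genes share a pattern, and no test was made.

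Among the other genes of the pathway, 2 of 96 tested passed as higher and none as lower. Over all genes tested, 1.24% passed as higher and 0.0983% as lower. Under median-of-ratios or upper-quartile scaling, 0 of the pathway genes passed. Limma-voom called 3, of which 2 were higher and 1 lower, against 1.83% and 0.241% of all genes. Of the 6 pathway lists, other receptors of the TNF superfamily had the highest median log2 fold change. Of 18 tested, 17 had a positive log2 fold change, and the share over all genes was not worked out. The median of the 18 was 0.67, against 0.05 for all genes. Ltbr, Tnfrsf11a and Tnfrsf17 were below 1 RPKM in every control and met the filter through the MycKO libraries alone. The filter thus fixed their positive sign, and neither the count of 17 nor the median is free of it. Of the 18, 1 passed as higher and none as lower. That gene was Tnfrsf21, which encodes death receptor 6. It was at 1.76, 3.44 and 1.72 RPKM in control libraries 1, 2 and 3, against 10.8 and 10.1 RPKM in MycKO libraries 5 and 6, a log2 fold change of 1.83 (SE 0.32), and the adjusted p in limma was 0.0449. Both MycKO libraries were close together and far above the controls, but of the 5 fits that leave out a library it passed only in that without control 2 (adjusted p of 0.0208, and up to 0.328 in the others). Ltbr, the receptor of the Lta and Ltb complex, which lymphocytes are known to lack, was near the floor in controls (0.984, 0.950 and 0.268 RPKM) and at 8.59 and 3.98 RPKM in MycKO 5 and 6, with an adjusted p of 0.0757. Tnfrsf9, the costimulatory receptor 4-1BB, was at 39.5 ± 5.79 and 75.5 ± 21.8 RPKM (adjusted p of 0.0937). Tnfrsf10b, the TRAIL receptor, was at 3.45 ± 0.931 and 3.38 ± 1.68 RPKM (adjusted p of 0.978) and was chosen to be named after its value was seen. Sums of macrophage markers (10 of 12 raised) and of B cell and plasma cell markers (1 of 8 raised) were higher in the same libraries. The part of those cells in these values was not tested.

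Other ligands of the superfamily were mostly too low to test, with 4 of the 9 in the table tested and none past the threshold. Tnfsf8, the CD30 ligand, was at 2.70 ± 0.665 and 8.80 ± 1.63 RPKM (adjusted p of 0.0762). Tnfsf12, which encodes TWEAK, was at 24.3 ± 3.33 and 16.2 ± 2.47 RPKM (adjusted p of 0.235), with both MycKO libraries below all controls. Tnfsf9, the 4-1BB ligand, was at 2.44 ± 1.69 and 1.50 ± 1.25 RPKM (adjusted p of 0.818).

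The machinery that carries death receptor signals showed no call among 18 genes tested, and its median log2 fold change was 0.01. The inhibitor of apoptosis gene Birc3 was at 34.3 ± 2.34 and 46.3 ± 3.80 RPKM (0.42, adjusted p of 0.21). Fadd, the adaptor of Fas and TRAIL receptors, was at 10.7, 7.69 and 7.29 RPKM in control libraries 1, 2 and 3, against 3.26 and 5.12 RPKM in MycKO libraries 5 and 6, with both MycKO libraries below all controls (-0.89, adjusted p of 0.229).

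Signalling genes between the TNF receptors and NF-κB also gave no call among 25 tested, with a median of 0.03. Apart from Ltbr, the smallest p-values belonged to the adaptor gene Tab2 (99.7 ± 7.57 and 128 ± 11.5 RPKM, adjusted p of 0.241) and the NF-κB subunit gene Rel (6.33 ± 1.07 and 10.8 ± 0.411 RPKM, adjusted p of 0.249). Of 18 NF-κB target genes, 1 rose and none fell, against 1.24% and 0.0983% of all genes. The median of this list was 0.29. Cd83, an activation marker of B cells and dendritic cells, rose from 3.96 ± 1.46 to 15.1 ± 2.76 RPKM (1.73, adjusted p of 0.0497), and lost the call in all 5 fits that leave out a library (adjusted p of 0.0642 to 0.256). Cxcl10, a chemokine gene, was at 3.30 ± 0.684 and 11.2 ± 2.33 RPKM (adjusted p of 0.0532), and Bcl2a1b, a survival gene with close paralogues whose reads may be divided between copies, at 7.45 ± 2.12 and 16.97 ± 1.94 RPKM (adjusted p of 0.0973). The gene called as lower in limma-voom was the chemokine gene Ccl5, named here after its values were seen. It was the most abundant of this list, at 4914 ± 513 and 3366 ± 150.2 RPKM, with both MycKO libraries below all controls. Its adjusted p was 0.151 in limma, 0.0124 in limma-voom and 0.00321 in the authors' deposited table. B cell markers without Jchain, with sums of 48.1 to 68.5 and of 115 and 104 RPKM, were higher in the same libraries as Cd83, and their part in its values was not tested.

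Genes that shed these ligands from the membrane or degrade their mRNA gave no call among 15 tested, with a median of 0.03. Rhbdf2, a cofactor of the TNF-shedding protease, was at 2.17 ± 0.436 and 3.88 ± 0.832 RPKM (adjusted p of 0.475). Elavl1, an mRNA-stabilizing protein gene, was at 23.7 ± 1.94 and 28.0 ± 0.678 RPKM (adjusted p of 0.582), and Zfp36l2, an mRNA-decay factor gene, at 216.6 ± 32.0 and 187.4 ± 22.6 RPKM (adjusted p of 0.676).

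**Figure D5:**
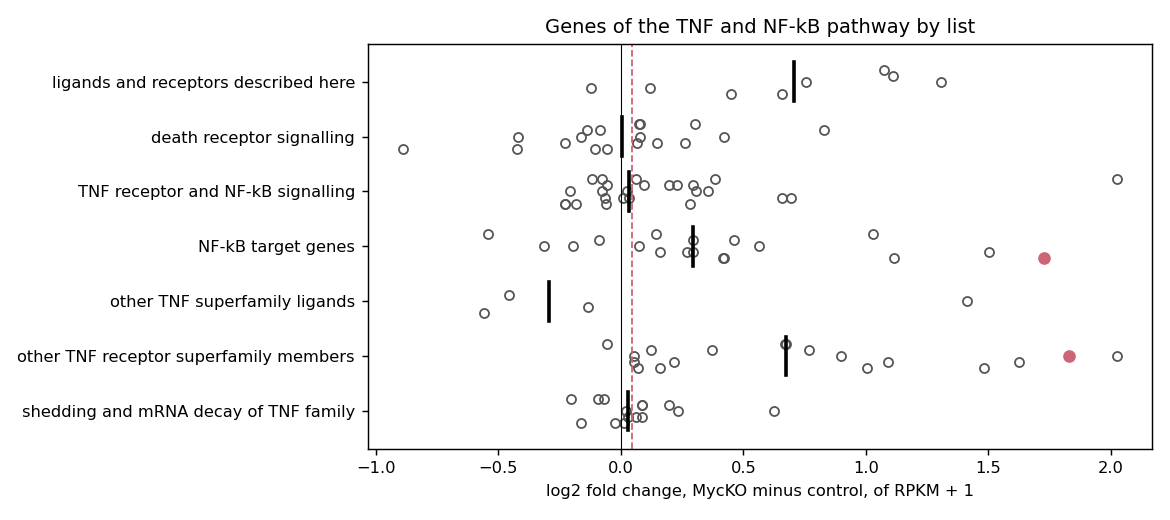
Log2 fold change of RPKM + 1, MycKO minus control (horizontal axis), of each tested gene, by list; open circles did not pass, filled circles (Cd83 and Tnfrsf21) passed at an adjusted p under 0.05, black bars are list medians, and the dashed line is the median of all genes. The lists of the 8 genes (0.71) and of other receptors (0.67) have medians above those of the signalling lists (0.01 and 0.03). Some of the other receptors met the filter through the MycKO libraries alone.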

How the data were processed

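RNA of 3 control and 2 MycKO libraries of sorted splenic NK cells was made into strand-specific libraries and read from a single end on an Illumina instrument, per the labels' protocols. Per the submitters' processing notes, TopHat and edgeR were used, named without a role, on build mm10; the sources used here give no version, annotation, counting tool or use of strand. The deposited table gives, per the file headers, an RPKM value per library, the authors' mean normalized signal per group, the ratio of these means as a fold change and in log2, and a p-value before and after adjustment; the test is not named.

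RPKM values were analysed as log2(RPKM + 1). A gene was kept where 2 or more libraries reached 1 RPKM (11190 of 13004, with all 8 genes), and limma 3.58.1 in R 4.3.3 was fitted over all 5 libraries with eBayes trend, giving 3 residual degrees of freedom and 4.41 prior ones. Tests were two-sided, p-values were adjusted by Benjamini-Hochberg across the genes kept, with 0.05 as the threshold. The reads behind each RPKM value were worked out from the RPKM values and the group means, and 100% came out whole within a relative 0.0001. Poisson intervals on these reads cover counting error only. Ratios within libraries were compared by exact permutation (scipy 1.17.1). The procedure was also run on simulated reads, with the same spread beyond counting error for every gene and no shift in cell content. Its outcome is not reported here, and no result rests on it. Figures were drawn with matplotlib 3.10.9.

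The 8 genes, the 6 pathway lists and the 9 marker lists were chosen with earlier results of these data known. Named genes are the 8, those of a pathway list that passed, the 3 of smallest p in each, the most abundant marker of each list, Myc and Ncr1, and the 2 nearest in pattern to each of the 8; Ncr1 was at 1264 ± 345 RPKM (SD, n = 3) and 688.5 ± 78.7 RPKM (SD, n = 2), with a limma adjusted p of 0.143. Some genes that this rule or the marker lists would name are not reported here. Coordinates are from GENCODE vM21 (mm10) and promoters from RefSeq, where all 8 symbols matched. Alternatives were 2 other scalings, 0.1 as pseudocount, dropping the filter, requiring 5 CPM of the recovered reads in 2 libraries, limma-voom, the authors' deposited test, and leaving out each library.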

Additional observations from a re-analysis of the deposited data

How the results depend on the processing

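No paired analysis was possible because the groups share no replicate numbers. Of the 8 genes, none passed with all 5 libraries, and 1 (Ltb) passed in limma-voom, in the authors' deposited test and without control 2; leaving out each library gave 0 to 1. All kept their direction under every alternative, except Fasl, whose log2 fold change ranged from -0.26 without MycKO 6 to 0.024 without MycKO 5. Over all genes, 150 were called, against 80 with a pseudocount of 0.1, 232 in limma-voom, 442 in the authors' deposited test, and 34 to 217 without each library. Of the pathway genes, 2 were called, against 0 with 0.1 as pseudocount and under each of the other scalings (upper-quartile and median-of-ratios), 3 in limma-voom, 1 with no filter, 4 with the filter of 5 CPM, 6 in the authors' deposited test, and 0 to 2 without each library. Fits without a MycKO library assume that the lone one varies like the controls. The group difference (MycKO minus control) of the log2 ratio of Lta to Tnf ranged from -0.21 (without control 1) to 0.72 (without control 3). Group differences of the other 3 log2 ratios kept their sign. For Ltb to Lta the difference ranged from -0.62 (pseudocount of 0.1) to -0.01 (without control 3). It ranged from -1.02 to -0.73 for Fasl to Tnfsf10 and from -0.48 to -0.17 for Tnfrsf1b to Tnfrsf1a. The cause of these changes was not tested. Depth limits Lta, Fas and Tnf most, with as few as 27, 70 and 30 reads in a library.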
